A study of Danio rerio with 6 samples.

Results

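The FK506-binding proteins (FKBPs) are the family to which rapamycin binds, and their genes were followed here in regenerating tail fins of zebrafish larvae. The family members were 10 named genes, taken from a table of 32057 Ensembl zebrafish gene IDs by matching the gene symbol without regard to case. Of these, 9 matched a single ID. The remaining gene, *fkbp10b*, could not be settled, because the name table gives FKBP10 to 2 IDs and does not say which is *fkbp10b*, so both IDs are described by ID and left out of the counts of members. The rapamycin group held 3 libraries (replicates 4 to 6) of larvae given 1 µM rapamycin from 2 days post fertilization, which GEO labels as mtor inhibition. The control group held 3 libraries (replicates 1 to 3) of wild-type larvae given the solvent DMSO. The study describes the groups as larvae with or without rapamycin, and it names *mTOR*-WT larvae for its inhibitor experiments. In both groups the fins had been amputated at 3 days post fertilization, were collected 24 h later, and were pooled by 50 for each library, so a library is the mean of many larvae. The pools are called biological replicates by the study, and the p-values measure the spread between these pools.

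FKBPs are peptidyl-prolyl isomerases, enzymes that turn the bond before a proline during protein folding. The small cytosolic FKBP12 is the receptor through which rapamycin acts: the drug binds FKBP12, and the pair then docks on the mTOR kinase and blocks mTOR complex 1. FK506 binds the same protein, but that pair blocks calcineurin. Other members carry additional domains and work elsewhere in the cell. Several of them lie in the endoplasmic reticulum (ER), where they help secreted proteins such as collagens to fold. The larger cytosolic FKBP51 and FKBP52 sit with Hsp90 on steroid receptors.

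The libraries held 49055607 to 54162044 counts, and 19778 genes passed the filter on low counts, among them all 9 matched members. The rapamycin libraries had nearly the same score in a principal component analysis (59.1 to 60.0 on the first component), while control replicates 2 and 3 lay at -77.4 and -92.4 and control replicate 1 at -8.84, nearer to the rapamycin libraries. Values are given as CPM, the count of a gene relative to its TMM-scaled library size. A gene is said to have risen or fallen where edgeR gave an adjusted p under 0.05 over all genes tested. CPM does not correct for transcript length, so levels are compared between libraries and not between genes.

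In the rapamycin fins 4 of the 9 members fell, 5 did not pass the test and none rose. The members that fell were *fkbp2*, *fkbp7*, *fkbp9* and *fkbp1b*. The median log2 fold change of the 9 members was -0.999, against 0.00 for all tested genes, and 8 of the 9 were below 0, against 49.9% of all tested genes. Over all tested genes, 3.27% fell and 1.97% rose (5.24% in all). In bulk fins, fewer cells of a type that uses a gene and less RNA of it per cell cannot be told apart. At an unadjusted p under 0.05, 6 members were lower and 0 higher in edgeR, beside 13.3% of all genes lower and 10.1% higher. DESeq2 called 5 members lower and 0 higher, beside 7.78% of all genes lower and 5.06% higher, and limma-voom called 4 lower and 0 higher, beside 3.42% lower and 2.86% higher. By the study's own threshold, a log2 fold change of 1 or more in either direction with an unadjusted p under 0.05, 4 members were lower and 0 higher, beside 5.57% of all genes lower and 3.91% higher. These 4 were *fkbp1ab*, *fkbp1b*, *fkbp7* and *fkbp9*, because *fkbp2* (-0.999) did not reach a change of 1. In 5 members every rapamycin library lay below every control library, which held for 15.9% of tested genes, and in 0 members every one lay above, which held for 14.8%.

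**Figure D1:**
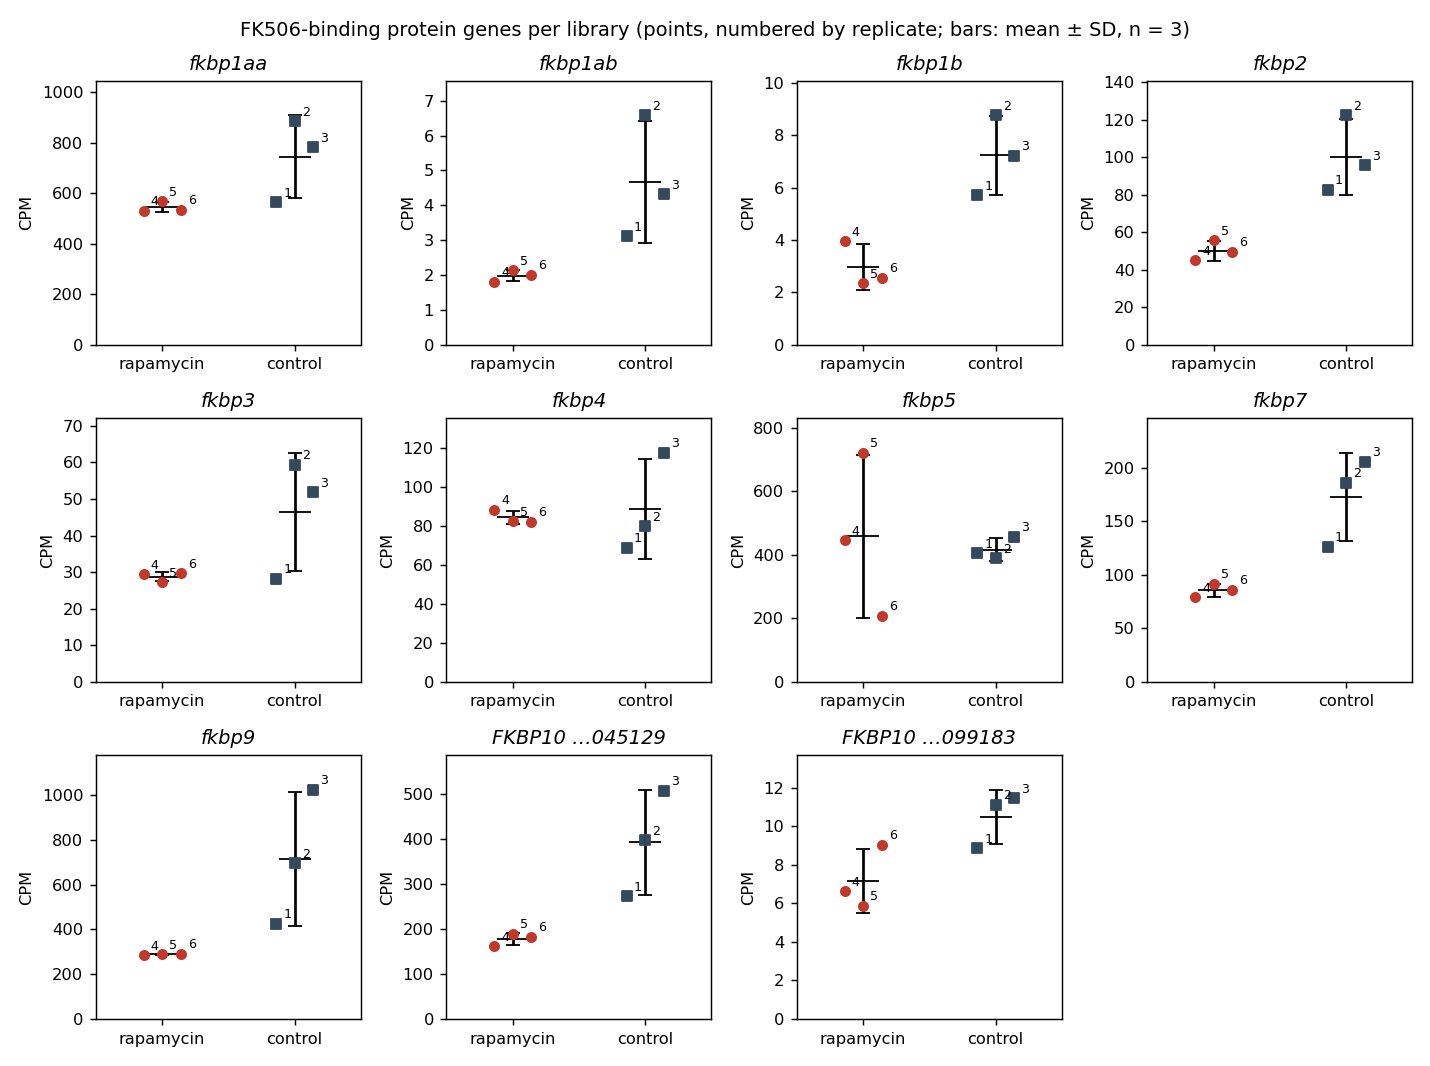
CPM of the 9 matched members and of the 2 gene IDs named FKBP10 (y axis) in the rapamycin and control libraries (points, numbered by replicate), with mean ± SD over 3 libraries. The rapamycin libraries of *fkbp9* lie between 284 and 292 CPM, while those of *fkbp5* spread between 208 and 723 CPM, and control replicate 1 is the lowest control library in every panel but that of *fkbp5*.

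The genes of FKBP12 itself are *fkbp1aa* and *fkbp1ab*, a pair of zebrafish paralogs. *fkbp1aa* (ENSDARG00000022684) had 531, 568 and 535 CPM in the rapamycin libraries, against 564, 886 and 783 CPM in control replicates 1 to 3. Control replicate 1 lay within the rapamycin range, and the other control libraries lay above it. The log2 fold change was -0.45 (standard error, SE, 0.20, 95% interval -0.90 to 0.00), which did not pass (edgeR adjusted p = 0.216). The result turned on a single library: without control replicate 1 the log2 fold change was -0.63 with an edgeR adjusted p of 0.00350, where 15.6% of all tested genes fell. The counts of all libraries also depended on gene span, by the rank correlation of span with log2 CPM relative to the mean of all libraries. It was 0.158 to 0.296 in the rapamycin libraries, against 0.212, -0.338 and -0.283 in control replicates 1 to 3. Control replicate 1 thus lay within the rapamycin range in this measure too. With the trend with span removed, the log2 fold change of *fkbp1aa* was -0.14 (edgeR adjusted p = 0.671).

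*fkbp1ab* (ENSDARG00000033567) had 1.80, 2.14 and 2.01 CPM in the rapamycin libraries, against 3.11, 6.58 and 4.32 CPM in the control libraries. These values rest on 96 to 116 counts per rapamycin library and 191 to 346 counts per control library. The groups did not overlap, yet the log2 fold change of -1.23 (SE 0.35, 95% interval -2.02 to -0.44) did not pass in edgeR (adjusted p = 0.0754), though DESeq2 called it (adjusted p = 0.0206). Of the counts of both paralogs together, *fkbp1ab* made up 0.338%, 0.375% and 0.375% in the rapamycin libraries, against 0.549%, 0.737% and 0.549% in the control libraries. The exact 95% binomial intervals reached from 0.274% to 0.453% over the rapamycin libraries and from 0.474% to 0.818% over the control libraries. Such intervals hold counting error alone and leave out the spread between libraries. PCR copies of a molecule were not marked, so the intervals may be too narrow even for counting error. The share of *fkbp1aa* was higher by 0.249 percentage points in the rapamycin libraries (99.6% ± 0.0212 against 99.4% ± 0.108 in the control libraries, SD, n = 3 each), with p = 0.1 by a two-sided exact permutation test, the smallest p that 3 against 3 libraries can give. Reads that the paralogs share may have been counted for either, so the size of this share is uncertain.

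*fkbp1b* (ENSDARG00000052625) encodes FKBP12.6, a close relative of FKBP12 that in mammals binds ryanodine receptors, the calcium channels of muscle and heart. It had 3.96, 2.34 and 2.56 CPM in the rapamycin libraries, against 5.72, 8.76 and 7.22 CPM in the control libraries. All rapamycin libraries lay below all control libraries. The log2 fold change was -1.29 (SE 0.32, 95% interval -2.01 to -0.58), with an edgeR adjusted p of 0.0499, the highest of the 1037 genes that passed. With library size as the only scaling it no longer passed (edgeR adjusted p = 0.0578).

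The members of the ER fell together. *fkbp2* (ENSDARG00000044540), a small FKBP of the ER lumen, had 45.1, 55.7 and 49.6 CPM in the rapamycin libraries, against 82.7, 122 and 95.6 CPM in the control libraries. Its log2 fold change was -0.999 (SE 0.19, 95% interval -1.43 to -0.57), with an edgeR adjusted p of 0.0231. The lowest control library was well above the highest rapamycin library.

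*fkbp7* (ENSDARG00000010962), an ER isomerase that in mammals binds the chaperone BiP, had 79.2, 91.6 and 85.9 CPM in the rapamycin libraries, against 126, 186 and 206 CPM in the control libraries. The log2 fold change was -1.01 (SE 0.21, 95% interval -1.48 to -0.54, edgeR adjusted p = 0.0280). With the trend with gene span removed it was -0.68 (edgeR adjusted p = 0.0543), which no longer passed. *fkbp9* (ENSDARG00000005023), an ER protein with several FKBP domains, had the lowest log2 fold change of the members, with 284, 289 and 292 CPM in the rapamycin libraries, against 425, 695 and 1024 CPM in the control libraries. Its rapamycin libraries differed by at most 1.03-fold, while its control libraries differed by up to 2.41-fold. The log2 fold change was -1.31 (SE 0.29, 95% interval -1.96 to -0.66, edgeR adjusted p = 0.0341).

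FKBP10, known as FKBP65, is an ER chaperone of type I procollagen, and its loss causes brittle bones in humans. Of the 2 IDs with this name, ENSDARG00000045129 had 162, 189 and 182 CPM in the rapamycin libraries, against 273, 397 and 506 CPM in the control libraries. It fell to 45.3% of the control level (log2 fold change -1.14, SE 0.23, 95% interval -1.67 to -0.62, edgeR adjusted p = 0.0272). The other ID, ENSDARG00000099183, had 6.63, 5.88 and 9.05 CPM in the rapamycin libraries, against 8.88, 11.1 and 11.5 CPM in the control libraries. The groups of this ID overlapped at rapamycin replicate 6, and its log2 fold change of -0.55 (SE 0.25) did not pass (edgeR adjusted p = 0.231). Whether *fkbp10b* fell therefore depends on which ID it is.

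ER relatives outside the 10 members went the same way. *fkbp11* (ENSDARG00000037000), a membrane-anchored FKBP that in mammals is abundant in secretory cells, had 46.3, 56.3 and 49.2 CPM in the rapamycin libraries, against 84.3, 155 and 173 CPM in the control libraries. Its log2 fold change was -1.44 (SE 0.26, 95% interval -2.03 to -0.85, edgeR adjusted p = 0.0179), and it also passed without control replicate 1 or 3, but not without control replicate 2 or any rapamycin library (edgeR adjusted p up to 0.109). *fkbp14* (ENSDARG00000040695), an ER isomerase that interacts with collagens in humans, had 105, 112 and 116 CPM in the rapamycin libraries, against 170, 207 and 239 CPM in the control libraries (log2 fold change -0.89, SE 0.18, edgeR adjusted p = 0.0262). Counting *fkbp2*, *fkbp7*, *fkbp9*, both FKBP10 IDs, *fkbp11* and *fkbp14*, 6 of 7 ER genes fell, to between 36.8% and 54.1% of the control level, and in the same 6 the groups did not overlap. Of all tested genes 3.27% fell, and 15.9% were lower without overlap. This grouping follows the known place of the proteins but was made after the values had been seen.

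**Figure D2:**
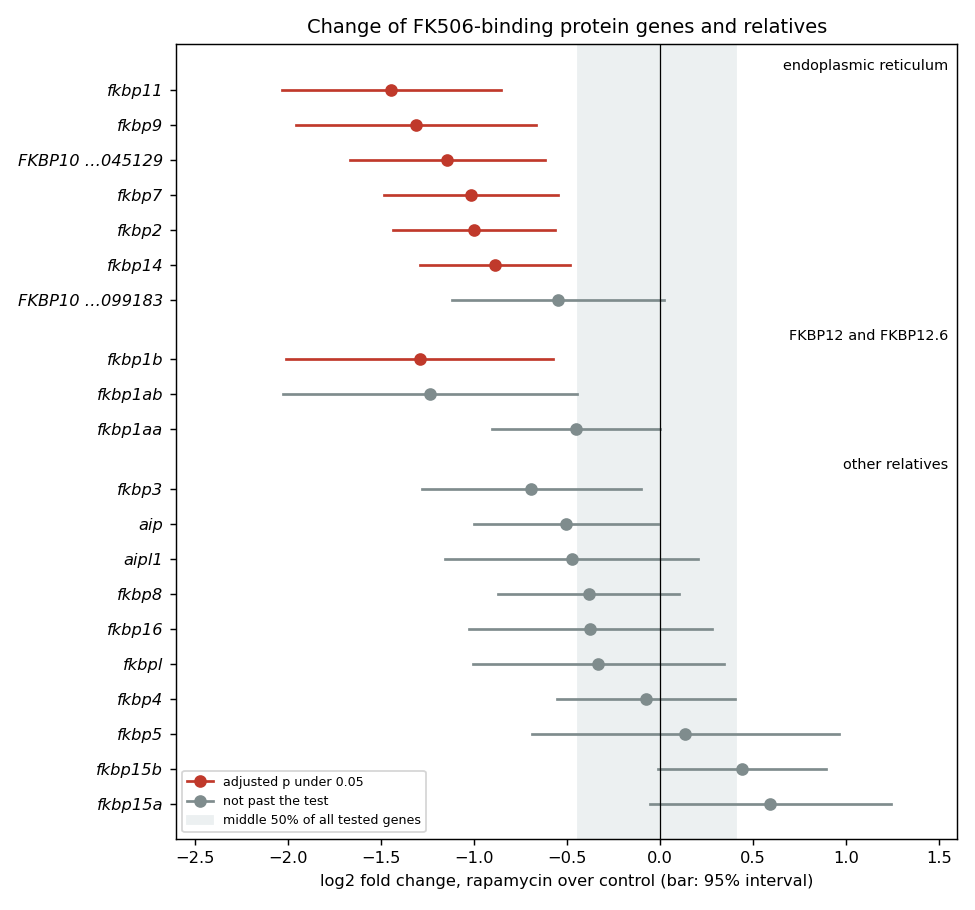
Log2 fold change (x axis, rapamycin over control, with 95% interval) of 20 tested genes of the FKBP family and its relatives, grouped by the place or kind of the protein. The 7 genes that fell are the ER genes apart from FKBP10 ENSDARG00000099183, and *fkbp1b*, and all lie left of the grey band that holds the middle of all tested genes.

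The members outside the ER and the FKBP12 group did not pass. *fkbp3* (ENSDARG00000098059), a nuclear FKBP, had 29.4, 27.3 and 29.6 CPM in the rapamycin libraries, against 28.2, 59.4 and 51.8 CPM in the control libraries. Control replicate 1 again lay among the rapamycin libraries. The log2 fold change was -0.69 (SE 0.26, edgeR adjusted p = 0.153), and without control replicate 1 it was -0.96 (edgeR adjusted p = 0.00112).

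*fkbp4* (ENSDARG00000008447), the gene of FKBP52, had 88.3, 82.6 and 82.2 CPM in the rapamycin libraries, against 68.9, 79.9 and 118 CPM in the control libraries. The rapamycin libraries lay inside the control range, and the log2 fold change was -0.07 (SE 0.21, 95% interval -0.55 to 0.40, edgeR adjusted p = 0.859). Its sign turned without control replicate 3 (0.18) and with the span trend removed (0.00).

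*fkbp5* (ENSDARG00000028396), the gene of FKBP51, is a classical target of the glucocorticoid receptor and restrains that receptor in turn. It had 446, 723 and 208 CPM in rapamycin replicates 4 to 6, against 405, 389 and 457 CPM in the control libraries. Replicate 5 lay above and replicate 6 below every control library. The log2 fold change was 0.14 (SE 0.37, 95% interval -0.69 to 0.96, edgeR adjusted p = 0.848), an interval that also holds the value of *fkbp1aa*. Without rapamycin replicate 5 it was -0.36 and without replicate 6 it was 0.49, neither of which passed (edgeR adjusted p between 0.392 and 0.948 over the fits without a single library).

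The spread of *fkbp5* among the rapamycin libraries was larger than that of nearly all genes. Its highest rapamycin library held 3.48 times the CPM of its lowest, where the median gene held 1.18 times, over 9923 tested genes with a mean log2 CPM of at least 3. Of these genes, 6 (0.0605%) had a larger ratio. In the control libraries its ratio was 1.17, and 91.6% of the genes had a larger one. This ratio was not among the planned measures, so the rank of *fkbp5* is a description. The 6 genes were *map3k14b*, *lonrf1*, *hsp70.3*, *klf2a*, HSPA2 and *klf9*, and they were singled out after their values had been seen. In the control libraries their ratios were 8.69, 5.89, 1.72, 12.2, 1.37 and 3.22, in this order. HSPA2 and *hsp70.3* are Hsp70 genes, and *klf2a* and *klf9* encode transcription factors. *klf9* is also a glucocorticoid target. It had 19.5, 39.0 and 11.2 CPM in rapamycin replicates 4 to 6, in the same order as *fkbp5*, against 39.7, 13.2 and 12.3 CPM in control replicates 1 to 3, where *fkbp5* did not vary with it. *tsc22d3*, a further target of the receptor that was likewise chosen after its values were seen, had 89.5, 114 and 78.1 CPM in the rapamycin libraries, against 88.4, 82.2 and 80.5 CPM in the control libraries. Of the 10 tested glucocorticoid targets, 4 (*klf9*, *tsc22d3*, *nfkbiaa* and *sgk1*) were highest in rapamycin replicate 5 and lowest in replicate 6, as were 13.97% of the 9923 genes, and the other 6 had another order. The receptor gene *nr3c1* had 114, 104 and 115 CPM in the rapamycin libraries, against 99.9, 89.0 and 105 CPM in the control libraries, so it was lowest in the rapamycin library where *fkbp5* was highest.

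**Figure D3:**
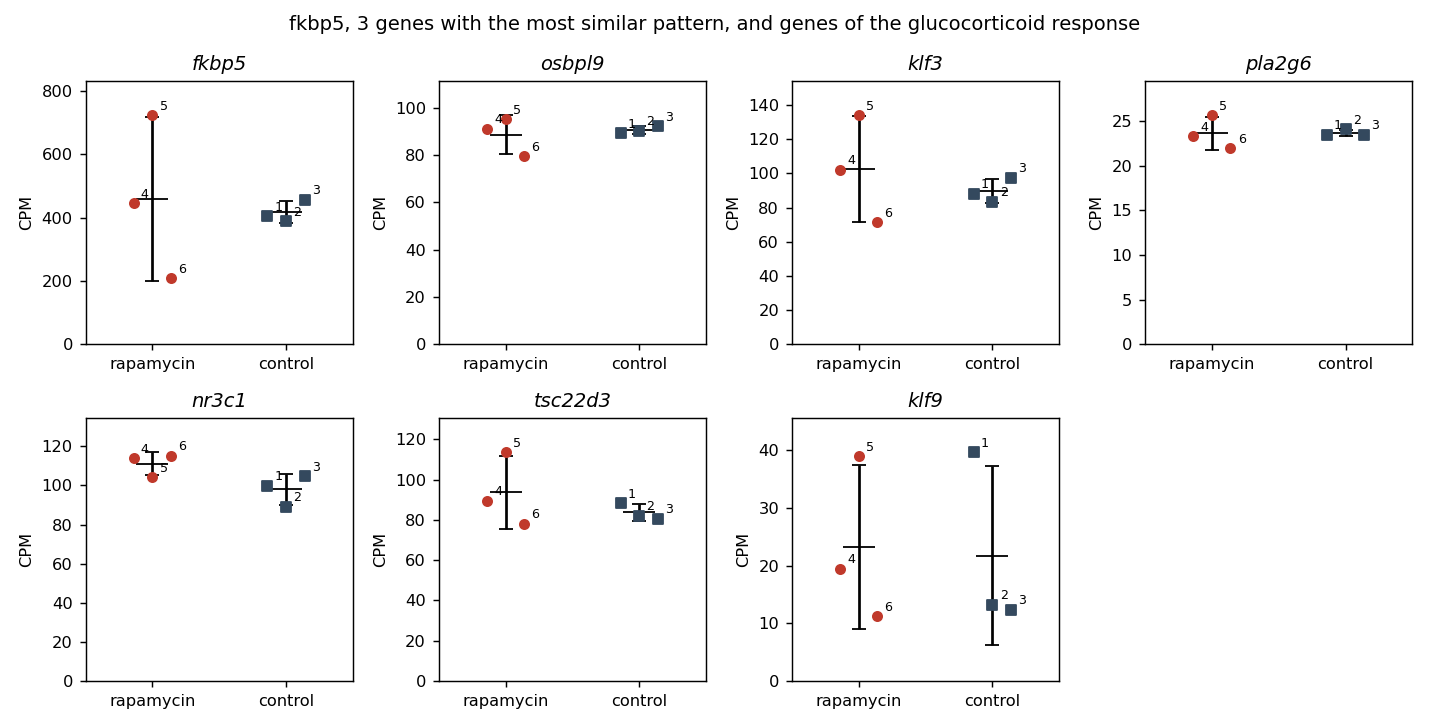
CPM (y axis) per library of *fkbp5*, of *osbpl9*, *klf3* and *pla2g6*, whose patterns over the 6 libraries were most like it, and of *nr3c1*, *tsc22d3* and *klf9* (points numbered by replicate, mean ± SD over 3 libraries). Rapamycin replicate 5 is the highest and replicate 6 the lowest rapamycin library in every panel but that of *nr3c1*. *osbpl9*, *klf3* and *pla2g6* were picked for their likeness to *fkbp5*, and *tsc22d3* and *klf9* after their values were seen. Of the 10 tested glucocorticoid targets, 6 had another order.

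Over the 6 libraries, the log2 CPM of *fkbp5* had a Pearson correlation of -0.04 to 0.14 with the other 8 members, and that of *fkbp4* one of 0.09 to 0.55. The genes most like a member were sought for *fkbp1aa*, *fkbp5* and the FKBP10 IDs alone. Among 9047 genes of sufficient level, the Pearson correlation of log2 CPM with *fkbp5* was over 0.9 for 4 genes, led by *osbpl9* (0.97), a lipid transfer protein, *klf3* (0.95), a transcriptional repressor, and *pla2g6* (0.93), a phospholipase. *klf3* had 102, 134 and 71.5 CPM in the rapamycin libraries, against 88.1, 83.5 and 97.5 CPM in the control libraries. For *fkbp1aa*, 1189 genes (13.1%) had a correlation over 0.9, led by *atpaf1* (0.999), which helps to assemble the mitochondrial ATP synthase, *acadm* (0.998), an enzyme of fatty acid oxidation, and SLC35D1 (0.998), a transporter of nucleotide sugars. For FKBP10 ENSDARG00000045129, 1052 genes (11.6%) did, led by *rcn1*, a calcium-binding protein of the ER, *myl6*, a myosin light chain (each 0.998), and *polh* (0.997), a DNA polymerase. *rcn1* had 142, 176 and 180 CPM in the rapamycin libraries, against 265, 410 and 558 CPM in the control libraries (log2 fold change -1.31, edgeR adjusted p = 0.0269). For FKBP10 ENSDARG00000099183, 214 genes (2.37%) passed 0.9, led by MYC, FERRY3 and *setd6*. The points of these correlations share the 6 libraries and the difference between the groups, so they are descriptions.

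The other 7 tested relatives did not pass the test in edgeR with all 6 libraries. The co-chaperone gene *aip*, which in mammals holds the aryl hydrocarbon receptor in the cytosol, had 119, 124 and 122 CPM in the rapamycin libraries, against 118, 191 and 209 CPM in the control libraries (log2 fold change -0.50, adjusted p = 0.207). *fkbp8*, which in mammals lies on the outer mitochondrial membrane, had 30.8, 24.9 and 31.7 CPM in the rapamycin libraries, against 32.0, 33.0 and 48.8 CPM in the control libraries (-0.38, adjusted p = 0.325). *aipl1* (-0.47), *fkbp16* (-0.37) and *fkbpl* (-0.33) had adjusted p-values from 0.380 to 0.543. *fkbp15a* and *fkbp15b* were the only relatives apart from *fkbp5* with a log2 fold change above 0. *fkbp15a* had 20.8, 16.8 and 19.3 CPM in the rapamycin libraries, against 16.7, 7.49 and 13.5 CPM in the control libraries (0.60, adjusted p = 0.249), and *fkbp15b* had a log2 fold change of 0.44 (adjusted p = 0.222). Without control replicate 1, edgeR called *fkbp15a* (0.84, adjusted p = 0.0366) and *fkbp15b* (0.58, adjusted p = 0.0263) higher, where 15.5% of all genes were higher. It called *aip* lower (-0.73, adjusted p = 0.00173), where 15.6% were lower, and *fkbp8*, *aipl1*, *fkbp16* and *fkbpl* did not pass. *fkbp6*, which in mice acts in meiosis, had 0 counts in all 6 libraries, which allows up to 0.0187 CPM over the rapamycin libraries and 0.0190 CPM over the control libraries (3 counts over a group).

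Few genes of the partners of these proteins passed. Of the list of FKBP12 partners, 10 of 21 names matched a single ID and 9 were tested, with a median log2 fold change of 0.26, and edgeR called none. At an unadjusted p under 0.05 edgeR gave 0 lower and 2 higher of the 9 (10.1% of all genes were higher), DESeq2 called 1 higher (5.06%) and limma-voom 0. *mtor*, the kinase that the drug and FKBP12 block together, had 25.9, 24.7 and 25.8 CPM in the rapamycin libraries, against 30.4, 17.6 and 15.1 CPM in the control libraries (log2 fold change 0.27, adjusted p = 0.566). *mlst8*, a subunit of the mTOR complexes, had 23.9, 24.9 and 34.3 CPM in the rapamycin libraries, against 19.0, 11.1 and 13.7 CPM in the control libraries (0.92, adjusted p = 0.0676), and *acvr1l*, a BMP receptor, had a log2 fold change of 0.43 (adjusted p = 0.171). *itpr2*, a calcium channel of the ER, had 0.70 (adjusted p = 0.491).

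Of the Hsp90 and steroid receptor complex, in which FKBP51 and FKBP52 work, 1 of 13 tested genes rose and 12 did not pass, with a median of 0.00. Of all tested genes 1.97% rose, and 14 of the 20 names of this list matched a single ID. The gene that rose was *hsp90ab1*, the constitutive cytosolic Hsp90, with 2490, 2268 and 2352 CPM in the rapamycin libraries, against 1082, 1457 and 1330 CPM in the control libraries. Every rapamycin library lay above every control library, and the log2 fold change was 0.88 (SE 0.18, edgeR adjusted p = 0.0298). The ubiquitin ligase gene *stub1* (0.40) and the Hsp70 co-chaperone gene *st13* (-0.26) had adjusted p-values of 0.182 and 0.368. Among the 15 names of glucocorticoid targets 10 matched a single ID. Of these 10 tested targets edgeR called none, with a median of 0.07. At an unadjusted p under 0.05 it gave 1 lower and 1 higher, where 13.3% of all genes were lower and 10.1% higher, and DESeq2 and limma-voom called 0. *pck1* (-0.91, adjusted p = 0.131), *nfkbiaa* (0.46, adjusted p = 0.149) and *cebpd* (-0.43, adjusted p = 0.535) had the smallest p-values of this list.

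The other isomerase families were compared as enzymes of the same reaction. Of 19 tested cyclophilin and parvulin genes, 1 fell and 18 did not pass, where 3.27% of all tested genes fell. Of the 19 genes, 16 had a log2 fold change below 0, against 49.9% of all tested genes, and the median was -0.33. The gene that fell was *ppih*, a cyclophilin of the spliceosome, with 23.7, 17.9 and 21.3 CPM in the rapamycin libraries, against 28.7, 54.8 and 48.9 CPM in the control libraries (log2 fold change -1.07, SE 0.26, edgeR adjusted p = 0.0450). *ppil3* (-1.07, adjusted p = 0.0515) and *ppib* (-0.84, adjusted p = 0.0696) came next. *ppib*, the ER cyclophilin that works on procollagen, had 635, 727 and 725 CPM in the rapamycin libraries, against 849, 1396 and 1480 CPM in the control libraries. At an unadjusted p under 0.05, 7 of the 19 genes were lower and 0 higher in edgeR, where 13.3% of all genes were lower. DESeq2 called 3 lower (7.78% of all genes) and limma-voom 2 (3.42%). In 9 of the 19 every rapamycin library lay below every control library, which held for 15.9% of all tested genes.

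Collagen folding genes were compared because FKBP10, *fkbp9* and *fkbp14* share their compartment. Of the 21 names of this list 13 matched a single ID. Of these 13 tested genes edgeR called none, 11 were below 0, against 49.9% of all tested genes, and the median log2 fold change was -0.31. Taking unadjusted p-values under 0.05, 6 of the 13 were lower and 0 higher in edgeR, where 13.3% of all genes were lower. DESeq2 called 4 lower, where it called 7.78% of all genes lower, and limma-voom called 0. Beside *ppib*, the smallest p-values were those of *hspa5*, the ER chaperone BiP (-0.81, adjusted p = 0.0787), and of *p3h1* (-0.56, adjusted p = 0.103), a prolyl hydroxylase of procollagen. *hspa5* had 609, 474 and 538 CPM in the rapamycin libraries, against 724, 849 and 1276 CPM in the control libraries. For the fibrillar collagen chains 7 of 12 names matched a single ID. Of 6 tested fibrillar collagen chains edgeR called none, with 0 at an unadjusted p under 0.05, 0 in DESeq2 and 0 in limma-voom, and a median of -0.02. *col1a2* (0.42, adjusted p = 0.334), *col1a1a* (0.29, adjusted p = 0.433) and *col11a1b* (-0.31, adjusted p = 0.504) led this list. *col1a1a*, a chain of type I collagen, had 51453, 44734 and 44427 CPM in the rapamycin libraries, against 40677, 30691 and 43605 CPM in the control libraries.

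**Figure D4:**
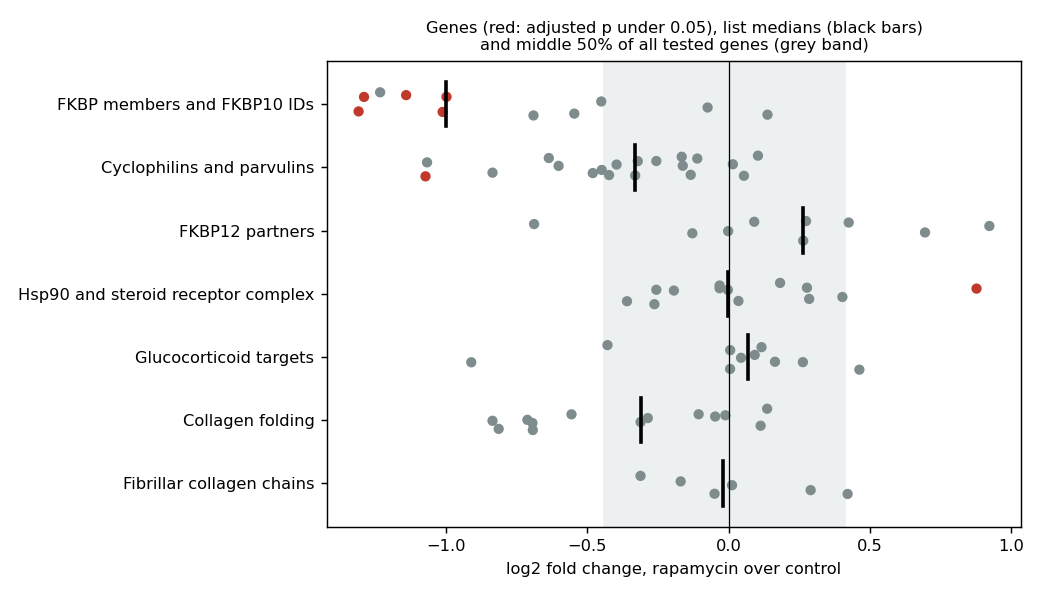
Log2 fold change (x axis, rapamycin over control) of each tested gene of the lists (rows), with list medians as black bars and the middle 50% of all tested genes as a grey band. The 9 members and both FKBP10 IDs have 5 genes that fell, the cyclophilin and parvulin list 1 gene that fell, and the Hsp90 list 1 gene that rose. The FKBP12 partner, glucocorticoid, collagen folding and fibrillar collagen lists have none that passed.

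The number of members called changed with single libraries. When control replicate 1 was left out, edgeR called 7 of the 9 members lower, all but *fkbp4* and *fkbp5*, while 15.6% of all genes were lower. Without control replicate 3 it called 2, *fkbp2* and *fkbp9*, in a fit that called 474 of 20448 genes lower. Without control replicate 2 or any single rapamycin library it called 0, in fits that called 65 to 79 genes lower in all. The fold changes moved less: that of *fkbp2* lay between -1.13 and -0.83 over the 6 fits, that of *fkbp7* between -1.21 and -0.87, that of *fkbp9* between -1.59 and -0.96 and that of *fkbp1b* between -1.57 and -1.13. The largest edgeR adjusted p over the same fits was 0.137 for *fkbp2*, 0.146 for *fkbp7*, 0.152 for *fkbp9* and 0.210 for *fkbp1b*. *fkbp14*, FKBP10 ENSDARG00000045129, *rcn1* and *hsp90ab1* likewise passed without control replicate 1 or 3, but not without control replicate 2 or any rapamycin library, where the largest edgeR adjusted p was 0.146 for *fkbp14*, 0.145 for the FKBP10 ID, 0.143 for *rcn1* and 0.159 for *hsp90ab1*. *ppih* passed only without control replicate 1.

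Without control replicate 1, edgeR called 15.6% of all genes lower and 15.5% higher. It also called 9 of 19 cyclophilin and parvulin genes lower (median log2 fold change -0.49), and 5 lower and 1 higher of 13 collagen folding genes (median -0.45). In the same fit, 5 of 9 FKBP12 partners were higher and none lower (median 0.55), among them *mlst8* (edgeR adjusted p = 0.00388). The spans of the 9 partners ran from 9323 bases (*mlst8*) to 272362 bases. The control libraries left in this fit had correlations with gene span of -0.338 and -0.283, against 0.158 to 0.296 in the rapamycin libraries. The part of gene span in this count was not tested. With all 6 libraries and the span trend removed, *mlst8* had a log2 fold change of 1.06 (edgeR adjusted p = 0.0427), which passed. In the fit without control replicate 1, 2 of the 6 fibrillar collagen chains were higher, and their median was 0.39 against -0.02 with all libraries. The glucocorticoid target list had 1 gene higher of 10 (median -0.05), and the Hsp90 list 1 lower and 1 higher of 13 (median -0.10). *fkbp1ab* passed in that fit as well (-1.47, edgeR adjusted p = 0.00700).

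**Figure D5:**
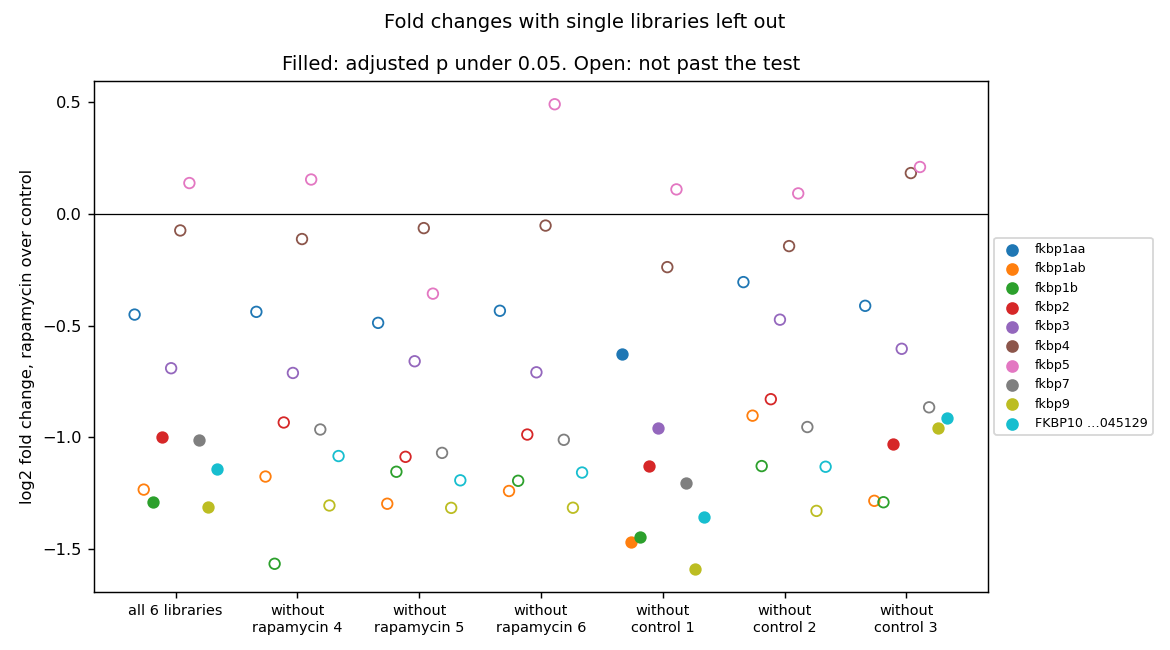
Log2 fold change (y axis, rapamycin over control) of the 9 members and of FKBP10 ENSDARG00000045129 with all 6 libraries and with each library left out in turn (x axis). Filled points passed an adjusted p under 0.05 in edgeR, and without control replicate 1 all but *fkbp4* and *fkbp5* are filled.

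Some cell type markers also differed between the groups. The fin markers of epidermis (summed CPM 44137 to 52459 in the rapamycin libraries, against 35517 to 48622 in the control libraries) and fin mesenchyme (103801 to 112540 CPM, against 88158 to 151176 CPM) were detected in every library, and both ranges overlapped. Of the 9 epidermal markers *krt92*, *krt17* and *cdh1* rose, and of the 10 mesenchymal markers none passed. Of all tested genes 3.27% fell and 1.97% rose. The erythrocyte list matched a single ID for 3 of its 6 names, and the macrophage list for 6 of its 10. Of 3 tested erythrocyte markers 2 fell (the globins *hbae3* and *hbae1.1*), with a summed level of 21.2 to 36.8 CPM in the rapamycin libraries, against 84.7 to 105 CPM in the control libraries. Of 5 tested macrophage markers 2 fell, *c1qa* and *c1qb*. The fall of *c1qa* rests on 0, 4 and 0 counts in the rapamycin libraries, against 102, 136 and 102 counts in the control libraries. *csf1ra* had 27.7, 26.7 and 24.2 CPM in the rapamycin libraries, against 20.9, 17.0 and 8.51 CPM in the control libraries, which did not pass (log2 fold change 0.76, edgeR adjusted p = 0.168). *csf1ra* made up most of the summed macrophage level in the rapamycin libraries (34.1 to 39.4 CPM, against 23.2 to 40.4 CPM in the control libraries). That sum therefore says little about the *c1q* genes. *c1qc* had 0, 20 and 0 counts in the rapamycin libraries, against 96, 185 and 158 counts in the control libraries. It did not pass (log2 fold change -4.52, edgeR adjusted p = 0.0554), and neither did *marco* (0.20, edgeR adjusted p = 0.834). Of 7 neutrophil names 4 matched a single ID, and of these 4 markers 1 rose, *mmp13a*. It had 52.9, 69.6 and 48.2 CPM in the rapamycin libraries, against 20.2, 33.1 and 17.6 CPM in the control libraries. The sum of the 4 markers was 382 to 545 CPM in the rapamycin libraries, against 199 to 297 CPM in the control libraries. Most of this sum was *mmp9*, which did not pass (edgeR adjusted p = 0.0814), so the sum mainly gives the level of that gene and not a number of neutrophils. *lyz* had 2.18, 1.77 and 0.949 CPM in the rapamycin libraries, against 2.74, 2.51 and 1.40 CPM in the control libraries. Neither *lyz* (log2 fold change -0.44, edgeR adjusted p = 0.577) nor *ncf1* (0.20, edgeR adjusted p = 0.807) passed. Of the muscle, notochord, neural and pigment markers none passed in edgeR, with summed muscle levels of 117 to 162 CPM in the rapamycin libraries, against 136 to 224 CPM in the control libraries. No matched marker in these lists was at 0 in all libraries. The part of these markers in the fall of the ER members and of *fkbp1b* was not tested.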

How the data were processed

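The 6 libraries were made by SMART-seq, a method for small amounts of RNA. The authors made cDNA from total RNA with SMARTScribe reverse transcriptase, fragmented it, amplified it by PCR and sequenced it in paired ends, and deposited whole-number counts per Ensembl zebrafish gene that had not been normalized. Aligner, counter and annotation are not given in the sources at hand, and the submitters' processing notes name the build mm10, so no coordinates are printed. Symbols came from a table of gene names (28988 IDs with a symbol). Gene spans came from RefSeq (GRCz12tu) by symbol.

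The fit used edgeR 4.0.16 under R 4.3.3 (filterByExpr, TMM, robust quasi-likelihood test, no covariate, Benjamini-Hochberg adjustment over 19778 genes), beside limma 3.58.1 and DESeq2 1.42.0. Where no tool is named, an adjusted p is that of edgeR. Standard errors were derived from the F statistic, and intervals use its degrees of freedom. The fits were also run on simulated data. These held no deviating library and no trend with gene span, so they do not cover those features of the real libraries. All members and their relatives are named. Of each list apart from the cell type markers, the 3 genes with the smallest adjusted p are named. For *fkbp1aa*, *fkbp5* and both FKBP10 IDs the 3 genes with the highest correlation are named. Of the cell type markers, all that passed are named, and some that did not. Members and lists were chosen with earlier results of these data known. List names that stand for several IDs were left out. Alternatives were DESeq2 size factors, upper quartile scaling, library size only, DESeq2, limma-voom, all genes unfiltered, a minimum of 10 counts per library, a loess trend with gene span as an offset, and leaving out each library. *mtor*, *nr3c1*, *klf9*, *tsc22d3* and the genes of larger spread than *fkbp5* were named beside that rule, after their values were seen. Protein and promoter features were not analysed here.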

Additional observations from a re-analysis of the deposited data

How the results depend on the processing

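No paired analysis was possible because the groups share no replicate numbers. Leaving out single libraries moved the number of genes that fell from 647 to between 65 and 3151, and the number that rose from 390 to between 47 and 3128. The members that fell numbered 0 to 7 in these fits, against 4 with all libraries. Those lower past the study's threshold numbered 2 to 5, against 4 with all libraries, where 5.57% of all genes were lower past it. DESeq2 called 1539 genes lower and 1000 higher, and 5 members lower, and the cause was not tested. The other normalizations and filters and limma-voom gave 676 to 801 genes lower, and with the span trend removed there were 459. These fits called 3 or 4 members lower. *fkbp4* lay between -0.24 and 0.18 and *fkbp5* between -0.36 and 0.49 over the fits without a single library, and *fkbp4* turned to 0.0040 with the span trend removed and *fkbp5* to -0.0346 in limma-voom, none of which passed. The share of *fkbp1aa* among paralog counts was 0.186 to 0.280 percentage points higher in rapamycin over the fits without a single library. The ratio per kilobase of coding sequence was not run, since coding lengths were not used here. Gene span was known for all 9 matched members but for 67.5% of tested genes, so that check is void for the counts over all genes, and it could not be run for the FKBP10 IDs, which had no span. The lowest counts were those of *fkbp1ab* and *fkbp1b*, which limits their precision.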
